A study of Mus musculus with 4 samples.

Results

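The genes for the protein subunits of the mitochondrial ribosome are described here in AML12 mouse hepatocytes in which Topors was knocked down. Members were all genes with the symbol Mrpl or Mrps followed by a number and at most 1 letter. Of 52630 gene identifiers, 78 matched, 49 of the large subunit (Mrpl) and 29 of the small subunit (Mrps). All 78 averaged 1 TPM or more across the 4 libraries, and so all were tested. The mitochondrial ribosome translates the few messenger RNAs of the mitochondrial genome, all of which encode respiratory chain and ATP synthase subunits. Its ribosomal RNAs come from mitochondrial DNA, whereas its proteins are encoded in the nucleus, made in the cytosol and imported. Many have a counterpart in the bacterial ribosome, and the others were acquired during mitochondrial evolution. Respiration, urea synthesis and fatty acid oxidation make hepatocytes rich in mitochondria.

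AML12 is a non-tumour hepatocyte line, derived from mice transgenic for human TGF-alpha. The knockdown libraries came from AML12 cells infected with lentivirus carrying a short hairpin RNA against Topors (shTopors). The Topors protein is a ligase for ubiquitin and SUMO. The control libraries came from AML12 cells infected with a control hairpin virus (shCtrl), and each group had 2 libraries. All cells were grown in medium with serum, an ITS supplement and dexamethasone, received 200 µl of virus concentrate and were collected after 5 days. The study's title concerns chromatin organization in hepatocytes, and the comparison asks how transcript levels differ when Topors is low. Whether replicate libraries stem from separate cultures is not stated in the labels. The p-values therefore cover the spread among these 4 libraries alone, and that spread may be technical.

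Strand-specific libraries were made from total RNA after removal of ribosomal RNA, and each gene's level is given as TPM, a length- and library-scaled abundance that keeps no read depth. Topors stood at 4.31 and 4.65 TPM in shTopors, against 21.9 and 29.2 TPM in shCtrl, so it was lower in both libraries labelled as knockdown. All 11 hepatocyte markers checked were at 1 TPM or more in every library, with summed levels of 8496 and 6797 TPM in shTopors and 7795 and 9566 TPM in shCtrl. Krt8 and Krt18, which bile duct cells also express, held most of the shTopors sums. Without these keratins the other 9 summed to 2039.7 and 2497 TPM in shTopors and 3533 and 5749.9 TPM in shCtrl. Of the 11, 4 were lower (36.4%; 35.2% of all genes tested) and 1 higher (9.09%; 14.6% of all genes tested) without overlap. Alb was at 4.15 and 402 TPM in shTopors and at 118 and 271 TPM in shCtrl, and Krt18, the higher one, at 3239 and 2168 TPM in shTopors and at 2069 and 1719 TPM in shCtrl. The marker with the smallest p, Apoe, was at 7.65 and 32.9 TPM in shTopors and at 209 and 426 TPM in shCtrl, followed by Ttr, at 195 and 410.3 TPM in shTopors and at 1119 and 2168 TPM in shCtrl. Of 16 markers of other liver cells, 13 were under 1 TPM in every library, and Adgre1, Clec4f, Lrat, Lyve1 and Cdh5 were listed at 0 throughout. The summed level of the 16 was 1524 and 412 TPM in shTopors and 435 and 403 TPM in shCtrl, nearly all from the bile duct keratins Krt7 and Krt19. Krt19 was at 1396 and 345 TPM in shTopors and at 341 and 296 TPM in shCtrl. The part of these marker differences in the results below was not tested. In bulk libraries, fewer cells of a type and less RNA per cell cannot be told apart.

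Mitochondrial ribosomal protein transcripts took a slightly larger share of the TPM in the knockdown libraries, but no member passed the test. As a sum they held 3847 and 4040.2 TPM in shTopors libraries 1 and 2, against 3283 and 3618 TPM in shCtrl libraries 1 and 2. These sums were 0.385% and 0.404% of all TPM in shTopors and 0.328% and 0.362% in shCtrl. The median member stood at 41.5 and 42.1 TPM in shTopors and at 34.4 and 38.8 TPM in shCtrl, so the medians of the groups did not overlap. In limma's test on log2(TPM + 1), adjusted with the Benjamini-Hochberg method over 13509 genes, 0 of 78 members had an adjusted p under 0.05, against 0.037% of all genes tested, or 5 genes (0.0074% higher and 0.0296% lower). The smallest adjusted p of a member was 0.218, for Mrpl19. At an unadjusted p under 0.05, 3 members were higher (Mrpl19, Mrpl53 and Mrpl20; background 3.98% of genes) and 0 were lower (background 10.7%), where 14.7% of all genes passed in either direction. These counts depended on the scaling and the filter. Members higher at that p were 17 with median-of-ratios scaling (7.30% of all genes), 13 with quantile normalization (7.58%) and 16 with a trend on transcript length and GC removed (8.31%). In these fits 0 members were lower, against 7.2%, 6.5% and 7.2% of all genes. After setting aside the top 10 genes by level, small RNAs and the mitochondrial genome, 6 were higher (4.28%) and 0 lower (11.95%). With no filter, 7 were higher (2.63%) and 1 lower (8.33%). The other settings with all 4 libraries gave 2 or 3 higher and 0 lower.

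The members leaned upward while the bulk of genes leaned downward. Their median log2 difference, shTopors minus shCtrl, was 0.15, and that of all genes tested was -0.18, an excess of 0.33. Above 0 lay 54 of 78 members (69.2%), against 34.1% of all genes, and above the all-gene median lay 65 members (83.3%). With 1 library left out, 62 to 66 members were above the all-gene median and 44 to 58 above 0. Both shTopors libraries were above both shCtrl libraries for 31 members (39.7%; 14.6% of all genes), and below both for 10 members (12.8%; 35.2% of all genes). Other scalings moved the median of all genes to -0.04 (median-of-ratios) or -0.01 (quantile), and the members' median to 0.30 or 0.31, so the excess stayed at 0.34 or 0.31 while the direction of members near 0 depended on the scaling.

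**Figure D1:**
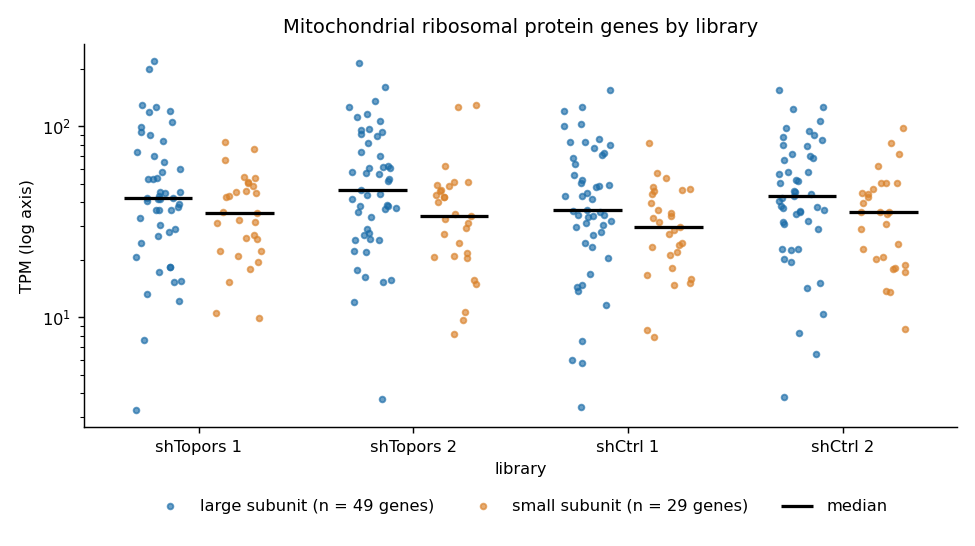
TPM of each mitochondrial ribosomal protein gene (log axis) in each library, large subunit in blue and small subunit in orange, with black lines at the medians. The large-subunit medians were 42.0 and 46.6 TPM in shTopors and 36.6 and 43.0 TPM in shCtrl, each above the small-subunit median of the same library.

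The members also differed less than most genes did. They stood at a higher level, with a median mean TPM of 38.3 against 16.1 over all genes tested, and the part of level in this was not tested. Their log2 differences had quartiles of -0.03 and 0.36, against -0.47 and 0.13 over all genes tested. Beyond 0.5 in either direction were 7 members (8.97%), against 31.3% of all genes, and beyond 1 were 2 members, Mrpl53 and Mrpl19. The share beyond 0.5 was also 8.97% for nuclear respiratory chain genes, so this was not particular to the members. It was 0% for mitochondrial ribosome assembly factors and 26.2% for cytosolic ribosomal protein genes. The median absolute log2 difference between the shTopors libraries was 0.22 for members and 0.36 for all genes, and between the shCtrl libraries it was 0.17 and 0.26. For nuclear respiratory chain genes it was 0.19 between the shTopors libraries and 0.22 between the shCtrl libraries. Only Mrpl53 was at least 2-fold apart between the shTopors libraries, and no member was between the shCtrl libraries. The order of the members by level was close to the same in every library: Spearman's rho over the 78 genes ran from 0.892 (shTopors 2 with shCtrl 1) to 0.96 (shCtrl 1 with shCtrl 2). It was 0.898 between the shTopors libraries. These are correlations across genes within shared libraries and describe the libraries only.

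**Figure D2:**
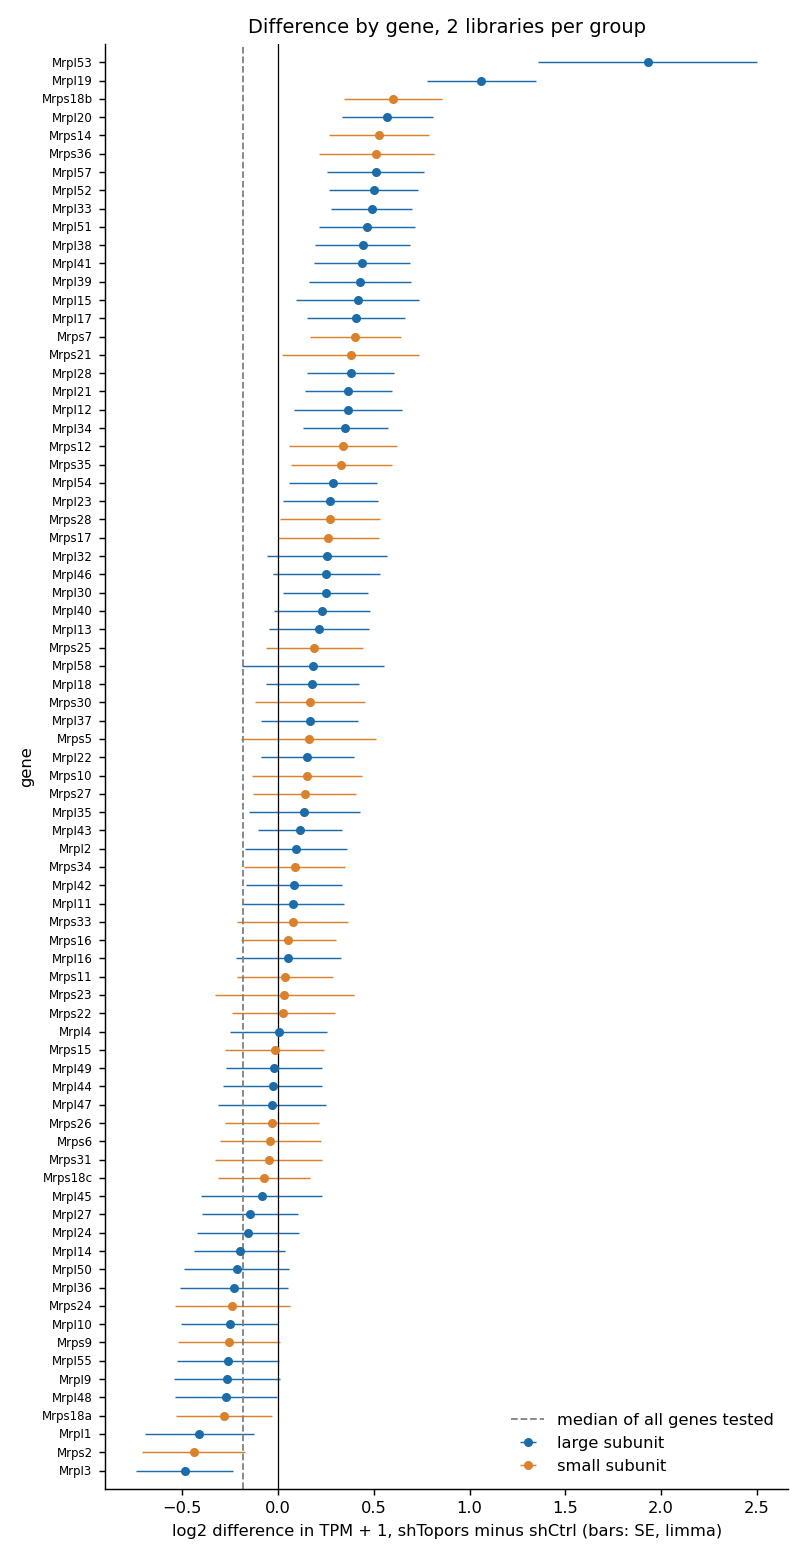
Log2 difference in TPM + 1, shTopors minus shCtrl, for each of the 78 genes in order, with the standard error from limma (2 libraries per group). Mrpl53 and Mrpl19 stand apart at 1.93 and 1.06, the other 76 lie between -0.49 and 0.60, and the dashed line marks the all-gene median of -0.18.

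Large and small subunits were set side by side, since a working ribosome needs both. The median large-subunit gene was at 42.0 and 46.6 TPM in shTopors and at 36.6 and 43.0 TPM in shCtrl. For the small subunit the median was 35.2 and 34.0 TPM in shTopors and 29.6 and 35.6 TPM in shCtrl. In each subunit taken alone, the group medians overlapped, because shCtrl 2 lay above shTopors 1 for the large subunit and above both shTopors libraries for the small. The ratio of the large to the small median was 1.19 and 1.37 in shTopors and 1.24 and 1.21 in shCtrl. It was highest in shTopors 2, whereas shTopors 1 lay below both controls.

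The median log2 difference was 0.18 over the 49 large-subunit genes and 0.09 over the 29 small-subunit genes. The gap between them, 0.09, was smaller than the SD of 0.098 between libraries of a group for the same large-minus-small value. Above the all-gene median were 40 of 49 large-subunit genes (81.6%) and 25 of 29 small-subunit genes (86.2%). Groups did not overlap and were higher for 22 large-subunit genes (44.9%) and 9 small-subunit genes (31.0%). They did not overlap and were lower for 6 and 4 genes. Over all genes tested the shares were 14.6% higher and 35.2% lower. In structures of the mammalian mitochondrial ribosome, Mrps30 and Mrps18a sit in the large subunit despite their names, and Mrps36 is now known as a part of the 2-oxoglutarate dehydrogenase complex. With members placed by structure, the medians were 0.17 for 51 large-subunit genes and 0.08 for 26 small-subunit genes. With 1 library left out the gap ran from 0.04 to 0.11.

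**Figure D3:**
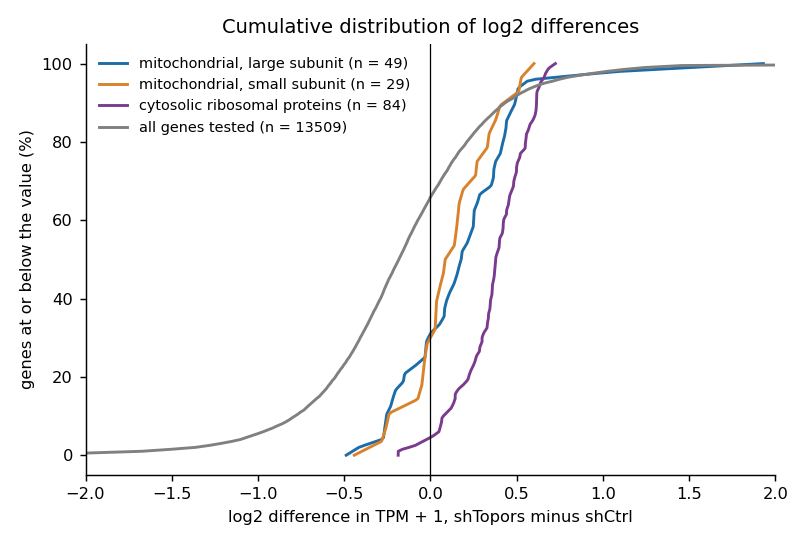
Cumulative share of genes (percent) against the log2 difference in TPM + 1, shTopors minus shCtrl, for the large and small mitochondrial subunits, cytosolic ribosomal proteins and all genes tested. At the 50% level both mitochondrial subunits (medians 0.18 and 0.09) lie between all genes (-0.18) and the cytosolic ribosomal proteins (0.38), and the curves come together or cross at the upper end.

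Members were also split by whether a bacterial counterpart was listed, with subunits by symbol. Mrps18a and Mrps18b, although paralogs of bacterial S18, were counted as small-subunit genes without one, with log2 differences of -0.28 and 0.60. The 46 genes with a bacterial counterpart had a median log2 difference of 0.14, and the 32 without had 0.17. In the large subunit, 30 genes with a counterpart had a median of 0.14 and 19 without had 0.23. In the small subunit, the values were 0.10 for 16 genes with a counterpart and 0.09 for 13 without. Above the all-gene median were 36 of the 46 genes with a counterpart and 29 of the 32 without. None of these differences was tested.

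Mrpl53, a large-subunit protein with no bacterial counterpart, had the largest difference of the family. It was at 17.2 and 62.3 TPM in shTopors 1 and 2, against 6.0 and 10.4 TPM in shCtrl 1 and 2. Both knockdown libraries lay above both controls, but shTopors 2 was 3.62-fold above shTopors 1. The means were 39.8 ± 31.9 TPM in shTopors and 8.17 ± 3.08 TPM in shCtrl (SD, n = 2 each), and limma gave a log2 difference of 1.93 (SE 0.57, adjusted p = 0.231). Without shTopors 1 the log2 difference was 2.83, and without shTopors 2 it was 1.03. A fit with 1 library left out has a single library in a group. That library was taken to vary as much as the other group does, so no adjusted p is given for such fits. Mrpl53 (ENSMUSG00000030037) lies on chromosome 6 of mm10, plus strand, from 83109040 to 83109939. It overlaps Gm42688 on its strand, listed at 24.1 and 11.9 TPM in shTopors and at 14.0 and 14.2 TPM in shCtrl, and Ccdc142os on the other, so its reads are hard to assign.

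Mrpl19, which has a bacterial counterpart, had the second largest difference. Its level was 12.2 and 15.6 TPM in shTopors, against 5.78 and 6.41 TPM in shCtrl. The groups were well apart, with means of 13.9 ± 2.42 TPM in shTopors and 6.10 ± 0.445 TPM in shCtrl (SD, n = 2 each). The log2 difference was 1.06 (SE 0.29), and it ran from 0.90 to 1.23 with 1 library left out. Its limma adjusted p was 0.218 with all libraries. For the fits with 1 library left out, no adjusted p is given, since the single library's group has no spread of its own. Mrpl19 (ENSMUSG00000030045) lies on the same chromosome, minus strand, from 81957851 to 81965958. It overlaps Gcfc2 on the other strand, listed at 8.43 and 10.2 TPM in shTopors and at 9.61 and 15.1 TPM in shCtrl.

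Mrpl20 and Mrpl33, both with bacterial counterparts, followed in the large subunit together with Mrpl57 and Mrpl52, which have none. Mrpl20 was at 92.9 and 106 TPM in shTopors, against 63.1 and 70.2 TPM in shCtrl. Mrpl33 was at 219 and 216 TPM in shTopors, against 154 and 155 TPM in shCtrl. Libraries of a group differed little for Mrpl33, which was also the most abundant member in every library. Mrpl52, the second in mean level, was at 200.5 and 160.0 TPM in shTopors, against 126 and 127 TPM in shCtrl. Mrpl57 was at 39.4 and 46.6 TPM in shTopors, against 30.6 and 29.0 TPM in shCtrl. For none of these 4 genes did the groups overlap. The log2 differences were 0.57 for Mrpl20, 0.49 for Mrpl33, 0.50 for Mrpl52 and 0.51 for Mrpl57, and limma's adjusted p was 0.331, 0.352, 0.378 and 0.399 for the same genes.

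Mrpl3, a core protein whose human gene is mutated in a mitochondrial cardiomyopathy, had the lowest log2 difference. It was at 24.4 and 22.3 TPM in shTopors, against 34.4 and 31.9 TPM in shCtrl. The means of 23.3 ± 1.54 and 33.1 ± 1.75 TPM (SD, n = 2 each) for shTopors and shCtrl were further apart than the libraries of a group, and the log2 difference was -0.49 (SE 0.25, limma adjusted p = 0.416). It stayed between -0.55 and -0.42 with 1 library left out. Mrpl3 (ENSMUSG00000032563) lies on chromosome 9, plus strand, from 105053239 to 105079888. Mrpl1 was at 18.4 and 22.1 TPM in shTopors, against 23.3 and 31.6 TPM in shCtrl, a log2 difference of -0.41. Its groups did not overlap either, though shTopors 2 and shCtrl 1 were close.

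The other large-subunit members with low values differed little. Mrpl48 was at 26.6 and 25.8 TPM in shTopors, against 28.0 and 36.2 TPM in shCtrl. Mrpl55 was at 15.2 and 15.3 TPM in shTopors, against 16.9 and 20.1 TPM in shCtrl. Both had groups that did not overlap, with shCtrl 1 close to the knockdown. Mrpl9 was at 41.6 and 57.0 TPM in shTopors and at 52.1 and 66.3 TPM in shCtrl, and its groups overlapped. Log2 differences of these 3 genes lay between -0.27 and -0.26. The processed pseudogene Mrpl48-ps, outside the rule, was listed at 11.4 and 10.8 TPM in shTopors and at 10.5 and 14.3 TPM in shCtrl, and Mrpl23-ps1 at 11.1 and 14.9 TPM in shTopors and at 7.39 and 9.36 TPM in shCtrl. Values of Mrpl48 and Mrpl23 are uncertain where reads could be shared with these copies.

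**Figure D4:**
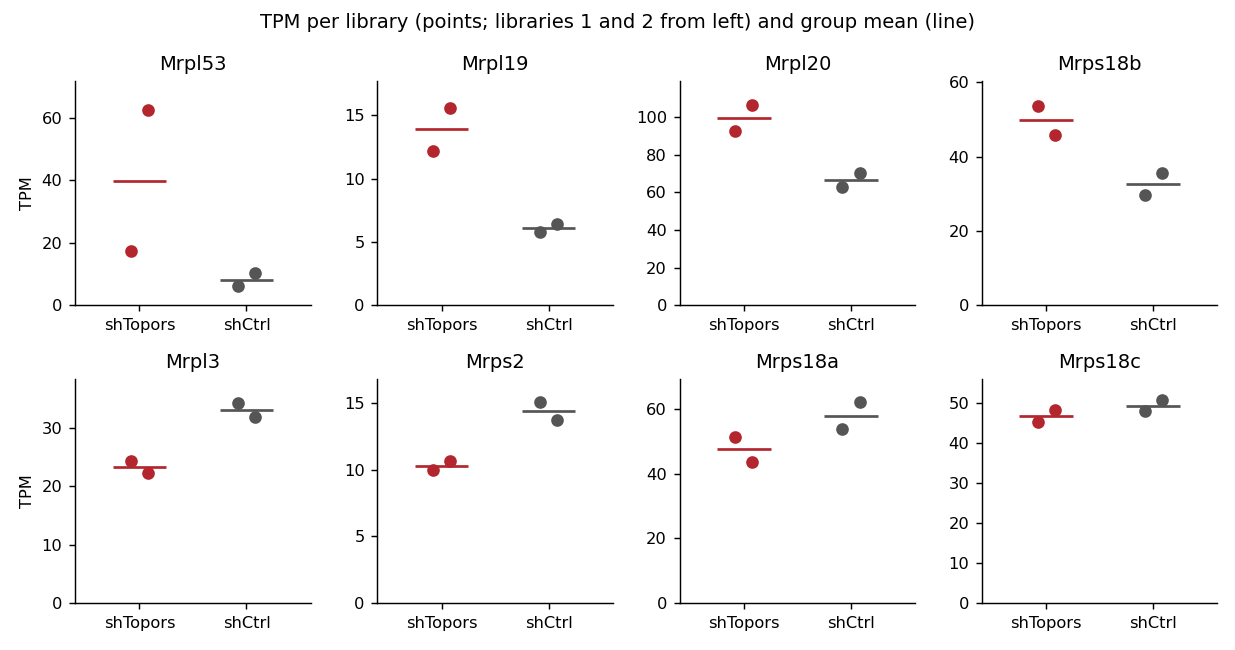
TPM in each library (points) and group mean (line) for 8 members, shTopors left of shCtrl and each axis starting at 0. Mrpl53, Mrpl19, Mrpl20 and Mrps18b were higher in both shTopors libraries, Mrpl3, Mrps2 and Mrps18a were lower, and Mrps18c overlapped between groups.

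The 3 paralogs of bacterial ribosomal protein S18 differed in direction. Mrps18b, a small-subunit protein, was at 53.7 and 46.0 TPM in shTopors, against 29.6 and 35.6 TPM in shCtrl. Mrps18a, which sits in the large subunit, was at 51.4 and 43.8 TPM in shTopors, against 53.9 and 62.3 TPM in shCtrl. Mrps18c, which takes the place of the bacterial protein in the small subunit, was at 45.5 and 48.4 TPM in shTopors, against 48.1 and 50.8 TPM in shCtrl. In shCtrl, Mrps18b was the lowest of the 3 in both libraries. In shTopors the 3 genes lay within 43.8 to 53.7 TPM. The log2 differences were 0.60 (SE 0.26) for Mrps18b, -0.28 (SE 0.25) for Mrps18a and -0.07 (SE 0.24) for Mrps18c, and limma's adjusted p was 0.345, 0.612 and 0.895. The difference between the paralogs was not tested, and the sign of Mrps18c depended on the scaling.

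Among the other small-subunit genes by symbol, Mrps14, Mrps36 and Mrps7 had higher levels in both knockdown libraries. Mrps14 was at 50.7 and 42.7 TPM in shTopors, against 28.7 and 35.7 TPM in shCtrl. Mrps36 was at 48.4 and 32.9 TPM in shTopors, against 31.5 and 24.3 TPM in shCtrl. Mrps7, whose product has a bacterial counterpart, was at 66.3 and 62.0 TPM in shTopors, against 46.2 and 50.3 TPM in shCtrl. Of the 3, Mrps36 came closest to overlapping, since shTopors 2 was near shCtrl 1. The log2 differences were 0.53, 0.51 and 0.40, with limma adjusted p = 0.402, 0.455 and 0.457.

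Mrps2, whose human gene is mutated in a disorder with deafness and hypoglycaemia, had the lowest log2 difference of the small subunit. It was at 9.97 and 10.6 TPM in shTopors, against 15 and 13.7 TPM in shCtrl. The groups did not overlap, and the log2 difference was -0.44 (SE 0.27, limma adjusted p = 0.468). Mrps9 was at 31.1 and 34.0 TPM in shTopors and at 34.1 and 44.8 TPM in shCtrl, with shTopors 2 next to shCtrl 1. Mrps24 was at 54.4 and 42.9 TPM in shTopors and at 45.8 and 71.2 TPM in shCtrl. Its groups overlapped, with shCtrl 1 between the shTopors libraries and shCtrl 2 above both. Mrps24 shares its strand with the overlapping gene Urgcp.

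The most abundant small-subunit genes were Mrps12, part of the decoding centre, and Mrps21. Mrps12 was at 83.0 and 129.6 TPM in shTopors, against 81.8 and 81.7 TPM in shCtrl. Only shTopors 2 stood clear of the controls. Mrps21 was at 76.0 and 126 TPM in shTopors and at 57.3 and 98.2 TPM in shCtrl, so library 2 of each group was the higher and the groups overlapped. Mrpl43, the third in mean level over both subunits, was at 129 and 135 TPM in shTopors and at 121 and 123 TPM in shCtrl, a log2 difference of 0.11 (SE 0.22).

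At the other end of the range, Mrpl47 was the least abundant member in every library. It was at 3.27 and 3.74 TPM in shTopors and at 3.39 and 3.82 TPM in shCtrl, and the groups overlapped. Mrpl47 overlaps Actl6a and Ndufb5 on the other strand. Mrpl32 was at 7.60 and 12 TPM in shTopors and at 7.47 and 8.26 TPM in shCtrl. Mrps10 was at 10.6 and 8.12 TPM in shTopors and at 7.88 and 8.66 TPM in shCtrl, and Mrps5 at 15.3 and 9.69 TPM in shTopors and at 8.55 and 13.6 TPM in shCtrl. The groups of these 3 overlapped too. Between the least and the most abundant member, mean TPM over the 4 libraries ran from 3.55 to 186.

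Of the remaining 51 members, the log2 differences lay between -0.25 (Mrpl10) and 0.46 (Mrpl51). Mrpl12, which also binds the mitochondrial RNA polymerase, was at 119 and 81.8 TPM in shTopors and at 86.1 and 67.9 TPM in shCtrl, and its groups overlapped. Mrpl58, a peptidyl-tRNA hydrolase built into the large subunit, was at 15.5 and 27.5 TPM in shTopors and at 14.3 and 22.9 TPM in shCtrl. Again library 2 of each group was the higher. Mrpl28, at 90.0 and 92.9 TPM in shTopors against 68.5 and 71.9 TPM in shCtrl, and Mrpl34, at 127 and 126 TPM in shTopors against 103 and 95.0 TPM in shCtrl, had groups that did not overlap. These 4 genes were chosen after their values were seen.

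Proteins of the mitochondrial ribosome that carry other gene names also had values on both sides of 0. None of 5 passed in either direction, and 2 were higher and 1 lower without overlap (14.6% and 35.2% of all genes). Chchd1 was at 112 and 118 TPM in shTopors, against 73.9 and 95.0 TPM in shCtrl, and Gadd45gip1 at 17.4 and 14.6 TPM in shTopors, against 13.4 and 13.7 TPM in shCtrl. Dap3, a GTP-binding protein of the small subunit, was at 84.2 and 85.5 TPM in shTopors, against 88.7 and 95.5 TPM in shCtrl. Ptcd3, at 90.1 and 80.1 TPM in shTopors and 63.3 and 85.2 TPM in shCtrl, and Aurkaip1, at 48.4 and 58.5 TPM in shTopors and 45.6 and 67.5 TPM in shCtrl, overlapped between groups.

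The lists of factors that build or run this ribosome had medians nearer to 0 than its proteins, but each was above the all-gene median of -0.18. Their excess over it was 0.16, 0.13 and 0.11 for assembly, translation and transcription genes, against 0.33 for the members. Of 25 assembly factors, none passed in either direction, and their median log2 difference was -0.03. Without overlap, 3 were higher (12%; 14.6% of all genes) and 7 lower (28%; 35.2% of all genes). Nsun4, an RNA methyltransferase of the mitochondrial ribosome, was at 9.26 and 9.62 TPM in shTopors, against 15.5 and 12 TPM in shCtrl, and Mrm2 at 7.82 and 5.73 TPM in shTopors, against 8.49 and 9.84 TPM in shCtrl. Of 14 translation factors, none passed, with a median of -0.05. Without overlap, 3 were higher and 3 lower (21.4% each; 14.6% and 35.2% of all genes). The initiation factor genes had the smallest p-values, with Mtif3 at 9.61 and 14.2 TPM in shTopors, against 19.4 and 23.8 TPM in shCtrl, and Mtif2 at 14.2 and 20.6 TPM in shTopors, against 21.0 and 29.9 TPM in shCtrl. On the other side, the elongation factor gene Tsfm had 43.1 and 42.9 TPM in shTopors, against 30.7 and 36.5 TPM in shCtrl, a gene picked with its values known. Of 12 tested genes for mitochondrial transcription and its regulators, none passed, with a median of -0.07. Without overlap, 0 were higher and 1 lower (0% and 8.33%; 14.6% and 35.2% of all genes). The coactivator gene Ppargc1a was at 0.336 and 0.867 TPM in shTopors, against 1.5 and 2.56 TPM in shCtrl, and Tfb2m at 13.8 and 18.4 TPM in shTopors, against 17.6 and 22.5 TPM in shCtrl.

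The RNAs that this ribosome contains and translates had lower values in the knockdown. All 13 mitochondrially encoded messenger RNAs had negative log2 differences, with a median of -0.83, where 34.1% of all genes were above 0, and 1 of 13 fell past the threshold (0.0296% of all genes). Of the 13, 11 were lower without overlap (35.2% of all genes), and mt-Nd4 and mt-Co2 overlapped, with mt-Nd4 at 7.5 and 7.45 TPM in shTopors and at 6.26 and 330.3 TPM in shCtrl. The gene past the threshold was mt-Atp6 (limma adjusted p = 0.0310). It was listed at 0.0157 and 0.0298 TPM in shTopors, against 8.57 and 7.03 TPM in shCtrl. Next by p-value came mt-Cytb, at 514 and 574 TPM in shTopors, against 1181 and 987 TPM in shCtrl. For mt-Atp8 the levels were 14.2 and 13.4 TPM in shTopors, against 24.99 and 25.6 TPM in shCtrl, a log2 difference of -0.83. The part of read assignment in the mt-Atp6 values was not tested. The ribosomal RNA mt-Rnr2 was at 916 and 1179 TPM in shTopors, against 4133 and 1379 TPM in shCtrl, and mt-Rnr1 at 71.5 and 75.6 TPM in shTopors, against 523 and 98.0 TPM in shCtrl. The controls differed more than 2-fold from each other for both. Ribosomal RNA had been depleted before sequencing, and the part of that step in the difference was not tested.

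Cytosolic ribosomal protein and nuclear respiratory chain genes, the nearest groups in function, also leaned upward without a call. Of 84 cytosolic ribosomal protein genes, 80 were above 0 (95.2%; 34.1% of all genes), with a median log2 difference of 0.38. Without overlap, 65 were higher (77.4%; 14.6% of all genes) and 2 lower (2.38%; 35.2% of all genes). Rpl8 was at 3798 and 3406 TPM in shTopors, against 2267 and 2209 TPM in shCtrl, and Rpl37a at 3559 and 3268 TPM in shTopors, against 2199 and 2282 TPM in shCtrl. Of 78 respiratory chain genes, 65 were above 0 (83.3%; 34.1% of all genes), with a median of 0.19. Without overlap, 39 were higher (50%; 14.6% of all genes) and 2 lower (2.56%; 35.2% of all genes). Cox5a, which encodes part of respiratory complex IV, was at 329 and 351 TPM in shTopors, against 69.8 and 104 TPM in shCtrl, a log2 difference of 1.98 (limma adjusted p = 0.0823). Cox7c was at 454 and 486 TPM in shTopors, against 242 and 323 TPM in shCtrl. The comparisons use the same libraries, and no test was made of the difference between these groups.

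Members were spread over 17 chromosomes. A protein-coding gene on the other strand started within 1000 bases, head to head, for 33 of 78 members (42.3%), against 17.8% of 11128 tested protein-coding genes. This held for 24 of 49 large-subunit and 9 of 29 small-subunit genes. Mrpl46 and Mrps11 are such a pair, 1 from each subunit. Of the partners, 30 were tested and none passed (0.037% of all genes). Of these 30, 19 were above 0 (34.1% of all genes), with a median log2 difference of 0.08, against -0.18 over all genes. Spearman's rho between member and partner was 0.18 over these 30 pairs, 2 of which are Mrpl46 with Mrps11 counted from each side. Ska3, a kinetochore gene that starts 49 bases from Mrpl57, had the highest value of a partner, 1.23. Ppp1r10, which starts 45 bases from Mrps18b, had -0.35, opposite in sign to its neighbour. Both partners were chosen after their values were seen.

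The promoters of Mrpl53, Mrps18b and Mrpl3 are shown because these genes stood at the top of the large subunit, the top of the small subunit and the bottom of the family. Each runs from 250 bases before to 50 after the RefSeq start, on GRCm38.p6 and 5′ to 3′ on the gene's strand. Capitals mark matches to CCGGAAG, the core letters of ETS factors such as GABP, or to TGCGCA, from the NRF1 site. Coordinates are chr6:83108858-83109157 (plus) for Mrpl53, chr17:35916391-35916690 (minus) for Mrps18b and chr9:105053018-105053317 (plus) for Mrpl3.
Mrpl53: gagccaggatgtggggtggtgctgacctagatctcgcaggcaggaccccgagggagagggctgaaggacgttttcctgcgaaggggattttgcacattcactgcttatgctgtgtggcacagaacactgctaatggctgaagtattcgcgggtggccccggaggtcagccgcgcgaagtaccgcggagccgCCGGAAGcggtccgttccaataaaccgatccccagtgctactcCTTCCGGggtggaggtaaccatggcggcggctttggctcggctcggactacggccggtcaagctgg
Mrps18b: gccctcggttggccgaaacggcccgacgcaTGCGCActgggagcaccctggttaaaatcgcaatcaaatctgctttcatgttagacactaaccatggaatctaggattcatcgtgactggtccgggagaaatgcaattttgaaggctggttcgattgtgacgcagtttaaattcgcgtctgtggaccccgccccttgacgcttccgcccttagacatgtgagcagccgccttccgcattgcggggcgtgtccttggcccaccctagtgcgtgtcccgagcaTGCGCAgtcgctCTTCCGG
Mrpl3: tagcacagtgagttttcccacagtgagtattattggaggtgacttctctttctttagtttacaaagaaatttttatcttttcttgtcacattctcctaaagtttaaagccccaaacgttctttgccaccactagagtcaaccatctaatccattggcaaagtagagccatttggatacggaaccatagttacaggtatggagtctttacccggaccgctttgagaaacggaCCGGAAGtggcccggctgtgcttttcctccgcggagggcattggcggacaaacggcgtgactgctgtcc
The genes with the highest and lowest log2 differences thus both had the ETS letters close to the RefSeq start. In Mrpl53 they began 59 and 16 bases before it, the second on the other strand, and in Mrpl3 they began 19 bases before it. In Mrps18b the ETS letters lay after the RefSeq start, on the other strand, and the NRF1 letters occurred at 2 places. Before and after depend on the annotation. From the GENCODE gene starts, 83109040 for Mrpl53 and 105053239 for Mrpl3, the ETS letters of both genes lay after the start. The whole Mrps18b window lay before its GENCODE start of 35916389 on the minus strand.

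RefSeq windows were found for 69 of the 78 members by symbol, 75 windows in all because some genes have several starts, and each motif was searched on both strands. CCGGAAG was in 34.7% of them, against 8.86% of 32851 promoter windows of all genes and 18.6% of 11152 windows of tested protein-coding genes. TGCGCA was in 29.3%, against 7.76% of all windows and 14.2% of those of tested protein-coding genes. AAGATGGC, the letters of YY1, was in 16%, against 2.75% of all windows and 4.64% of those of tested protein-coding genes, while TATAAA was in 6.67%, against 13.6% and 6.69%. Windows with CCGGAAG belonged to members with a median log2 difference of 0.17 (26 windows), and those without to members with 0.08 (49 windows). For TGCGCA the medians were 0.05 with (22 windows) and 0.11 without (53 windows). These matches describe the letters only.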

How the data were processed

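RNA of 4 libraries was measured, 2 of shTopors and 2 of shCtrl AML12 cells. The authors deposited TPM per gene and library. HISAT2, HTSeq, DESeq2, StringTie and mm10 are named without roles or versions, per the submitters' processing notes, and neither the program behind the TPM nor the strand setting of its counting is stated. Depth is unknown, and no counting interval was computed. A gain in any abundant RNA lowers the TPM of all others.

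Of 52633 rows, 3 repeated an identifier and were summed. The test used limma 3.58.1 (R 4.3.3) with a mean-variance trend, shTopors minus shCtrl, on log2(TPM + 1) of the 13509 genes that averaged 1 TPM or more. Benjamini-Hochberg adjustment covered all of these genes, and an adjusted p under 0.05 was called. Differences on this scale understate the change of low genes. In 10 simulations of shTopors against shCtrl, 200 of 13509 genes were changed and noise was normal and independent between genes. The test found 0.4% of the genes changed by 1 on the log2 scale, 49.8% of those changed by 2, 76.2% for 3 and 88.6% for 4. Changed genes were drawn from those with a shCtrl mean of log2(TPM + 1) above 3. Low members such as Mrpl47 and Mrpl19 lay outside that range, so these rates do not describe them. Coordinates, lengths and overlaps came from GENCODE M21 and promoters from RefSeq. Python 3.11.15, numpy 2.4.6, pandas 2.3.3 and matplotlib 3.10.9 were used.

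Named members were those past the threshold, the Mrps18 paralogs, the 5 highest and 5 lowest log2 differences and the 3 highest and 2 lowest levels of each subunit, those over 2-fold apart between shTopors libraries, the mitochondrial ribosome proteins with other names, and the 2 genes with the smallest p of each other list. The members and lists were chosen with earlier results of these data known. Alternatives were other pseudocounts (0.1 and 5), filters, scalings, variance models, a replicate block, each library left out and subunits by structure. A fit without the trend on length and GC of transcripts was added after seeing the data.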

Additional observations from a re-analysis of the deposited data

How the results depend on the processing

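With all 4 libraries, 0 members passed at any setting tried (the minimum of 5 TPM drops Mrpl47), and 2 (Mrpl53 and Mrpl19) or 1 (Mrpl53) passed without shTopors 1 or 2, where 1147 or 2166 genes passed in all. Without 1 library the count of all genes ran from 0 to 2166 and that of members from 0 to 2. The 5 genes past the threshold became 0 with no filter, 1 with a mean of at least 5 TPM, 1 with median-of-ratios scaling, 1 with quantile normalization, 1 when TPM was rescaled after small RNAs, genes of the mitochondrial genome and the 10 top genes by level were set aside, 1 with the trend on length and GC taken out, and 33 with the replicate block. Fewer or more genes tested changes the adjustment, and otherwise the cause was not tested.

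The members' excess over all genes (0.33) was 0.37 and 0.24 with pseudocounts of 0.1 and 5, 0.20 with no filter, 0.31 with a mean of at least 5 TPM, 0.31 with quantile normalization, 0.27 with the length trend taken out, and 0.28 to 0.35 with 1 library left out. It was positive in all of these. The members' median was 0.30, 0.31 and 0.27 with median-of-ratios scaling, quantile normalization and the trend removed. For the large subunit it was 0.34 and 0.32 with the 2 scalings, and for the small subunit 0.24, 0.26 and 0.23 with the scalings and the trend removed. With 1 library left out the medians ran from 0.09 to 0.23 over all members, from 0.10 to 0.25 for the large and from 0.02 to 0.21 for the small subunit.

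Of 27 named members under 15 alternatives, 7 changed sign at some setting. Mrpl47 was at 0.10 with median-of-ratios scaling, 0.21 with quantile normalization and 0.13 with the trend removed, and Mrps18c at 0.087 and 0.033 with the 2 scalings. With 1 library left out, Mrpl47 ran from -0.11 to 0.044, Mrps10 from -0.022 to 0.32, Mrps5 from -0.15 to 0.47, Mrpl32 from -0.042 to 0.55, Mrps21 from -0.0047 to 0.76 and Mrps24 from -0.55 to 0.073.

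Same-numbered libraries share only a number. The correlation of their deviations from the group means was 0.199 over 13509 genes with 2 pairs. With the replicate block 0 members passed, and the smallest adjusted p of a member was 0.0936 (limma). TPM keeps no depth, so the reads behind low members such as Mrpl47 are unknown.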
